A study of Arabidopsis thaliana with 8 samples.

Results

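Aquaporins are the family described here, and its members were chosen by locus: 13 PIP, 10 TIP, 6 NIP and 3 SIP genes, 32 of the 37573 genes in the count table. The remaining Arabidopsis NIP genes, NIP3;1, NIP4;1 and NIP4;2, were not members and were kept as a list beside them. Hypocotyls of Arabidopsis thaliana plants that carried the SMXL7pro:SMXL7d53-GR transgene were sequenced after dexamethasone (DEX) or mock treatment, with 4 libraries per treatment. All 8 libraries came from this transgenic genotype in the Col-0 accession, whose endogenous SMXL7 gene was still present. The transgene encodes SMXL7d53, a strigolactone-resistant form of SMXL7, which is a repressor protein that strigolactone signalling normally removes. This form is fused to the glucocorticoid receptor so that DEX releases it into the nucleus. Plants were 4 weeks old, had been moved from short to long days after 3 weeks, were watered with 15 µM DEX or with solvent, and were harvested 5 h later. The SMXL7 promoter set the cells in which the fusion acted, and whether the line was 1 insertion or how many plants went into a library is not given in the sources used here. No DEX-treated plants without the transgene were among the samples, so a response to DEX itself and a response to the fusion protein cannot be told apart. Because the labels do not say that the replicates were separate pools of plants, the p-values measure only the spread between these libraries.

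Aquaporins are channel proteins that let water, and in some members small uncharged solutes, pass a membrane down a gradient without the use of energy. Each channel has a pair of short loops that meet in the middle of the pore, and each loop carries the residues asparagine, proline and alanine, the NPA box, or a variant of it. PIP proteins act mainly at the plasma membrane, TIP proteins at the vacuole, NIP proteins mostly at the plasma membrane as carriers of metalloids such as boric acid, and SIP proteins in the endoplasmic reticulum. In stems and hypocotyls they are known for water movement around the vascular tissue and for the expansion of growing cells.

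The box sequences below are shown because they differ between subfamilies. They are from the genes that rose under DEX (PIP2;6, TIP2;1 and NIP5;1), the closest relative of the last, and a SIP gene. They come from the RefSeq assembly TAIR10.1 and are written 5′ to 3′ along the coding strand, with the 9 bases of the box in capitals.
PIP2;6 first box, chr2:16292378-16292398, + strand: cacatcAATCCCGCGgtgacg
PIP2;6 second box, chr2:16293471-16293491, + strand: ggaataAACCCGGCTaggagt
TIP2;1 first box, chr3:5505877-5505897, + strand: catgtgAACCCAGCCgtcact
TIP2;1 second box, chr3:5506618-5506638, + strand: tccatgAACCCAGCAcgttcc
NIP5;1 first box, chr4:6432363-6432383, - strand: cacctaAACCCATCActgacc
NIP5;1 second box, chr4:6431689-6431709, - strand: tctatgAATCCTGTGagaact
NIP6;1 first box, chr1:30351491-30351511, - strand: catctcAATCCGGCTgtaacc
NIP6;1 second box, chr1:30350796-30350816, - strand: tcgatgAACCCTGTAagaaca
SIP1;1 first box, chr3:1073810-1073830, - strand: agcttcAATCCTACCggaagc
The PIP and TIP genes shown code for NPA in both boxes. The boric acid channel NIP5;1 codes for asparagine, proline and serine in the first box and for asparagine, proline and valine in the second, and its closest relative shares the valine but not the serine. The SIP gene has threonine in the third position of its first box.

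Each library held between 47976811 and 85953231 counts, with 49220724 to 85953231 in mock and 47976811 to 63996960 in DEX. Counting error was small for the abundant genes and larger for genes near a mean of 50 normalised counts. Levels below are CPM, counts scaled to a common library size by TMM factors, per kilobase of exon, which allows genes of different length to be compared. Differences between treatments are log2 fold changes (DEX over mock) from edgeR's quasi-likelihood test across 21289 genes, with p-values adjusted by Benjamini-Hochberg. A gene rose or fell where the adjusted p was under 0.01, and it was called induced or suppressed where it also changed more than 1.5-fold with a mean normalised count over 50, the thresholds of the study's methods. Over all genes tested, 10.9% rose and 8.69% fell. Of 10 hypocotyl vascular and periderm markers, all 10 were detected and tested, with 1 that rose and 2 that fell. Shoot markers moved with treatment: 5 of 8 fell and 1 rose, and their summed level was 1085 to 1503 in mock against 859.5 to 1015 in DEX. SMXL7 itself, where reads of the endogenous gene and of the transgene are combined, had a log2 fold change of -0.44 (SE 0.046, edgeR adjusted p = 1.52e-05), so its level does not show whether the fusion was active.

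Aquaporin messages spanned the whole range of the hypocotyl transcriptome. The gene with the highest level was TIP1;2 (AT3G26520), a vacuolar water channel, at 1130.0 ± 109 (SD, n = 4 mock libraries), which placed it 17th of the 28073 detected genes. TIP2;1 (AT3G16240), which passes ammonia as well as water, followed at 561 ± 34.2, with a range over the mock libraries apart from those of the genes above and below it. PIP2;7 (AT4G35100) and TIP1;1 (AT2G36830), at 395 ± 16.7 and 394 ± 30.8, had overlapping ranges, and so did the latter and PIP1;3 (AT1G01620) at 361 ± 5.32. The next 3 were PIP2;1 (AT3G53420) at 236 ± 18.3, PIP1;2 (AT2G45960) at 214 ± 7.75 and PIP1;4 (AT4G00430) at 205 ± 12.4, each overlapping its neighbour. These 8 were the only members over a level of 100 and together held 86.9% of the summed mock level of the family, with 28.1% in the first gene alone and 70.6% in the first 5.

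Below them came PIP2;6 (AT2G39010) at 92.9 ± 4.92 and the boric acid channel NIP6;1 (AT1G80760) at 79.0 ± 8.55, whose ranges overlapped. The most abundant SIP gene, SIP1;1 (AT3G04090), had a level of 48.5 ± 2.48, near that of PIP2;3 (AT2G37180) at 47.6 ± 5.58. NIP5;1 (AT4G10380) stood at 31.6 ± 2.10, overlapping SIP2;1 (AT3G56950) above it. SIP1;2 (AT5G18290) had a level of 2.77 ± 0.234, and the 5 tested members below it had mean levels between 0.397 and 2.01. A further 5 members were at 3 or fewer counts summed over the mock libraries and were not tested: TIP1;3 (AT4G01470) and TIP5;1 (AT3G47440), known from pollen, the seed genes TIP3;1 (AT1G73190) and TIP3;2 (AT1G17810), and NIP2;1 (AT2G34390), known from oxygen-starved roots. None of 3 pollen markers was tested either. Exons of neighbouring genes cover 61.9% of the exon bases of NIP2;1 and 47.1% of those of TIP3;2. If the annotation used for counting held the same overlaps, reads there were left out by a count that ignored strand. The counts of NIP2;1 and TIP3;2 then come only from the rest of their exons. They were low there, which does not show that expression was absent. Lengths of the longest transcript in place of all exons left 28 members at the same rank and moved none by more than 1 rank.

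**Figure D1:**
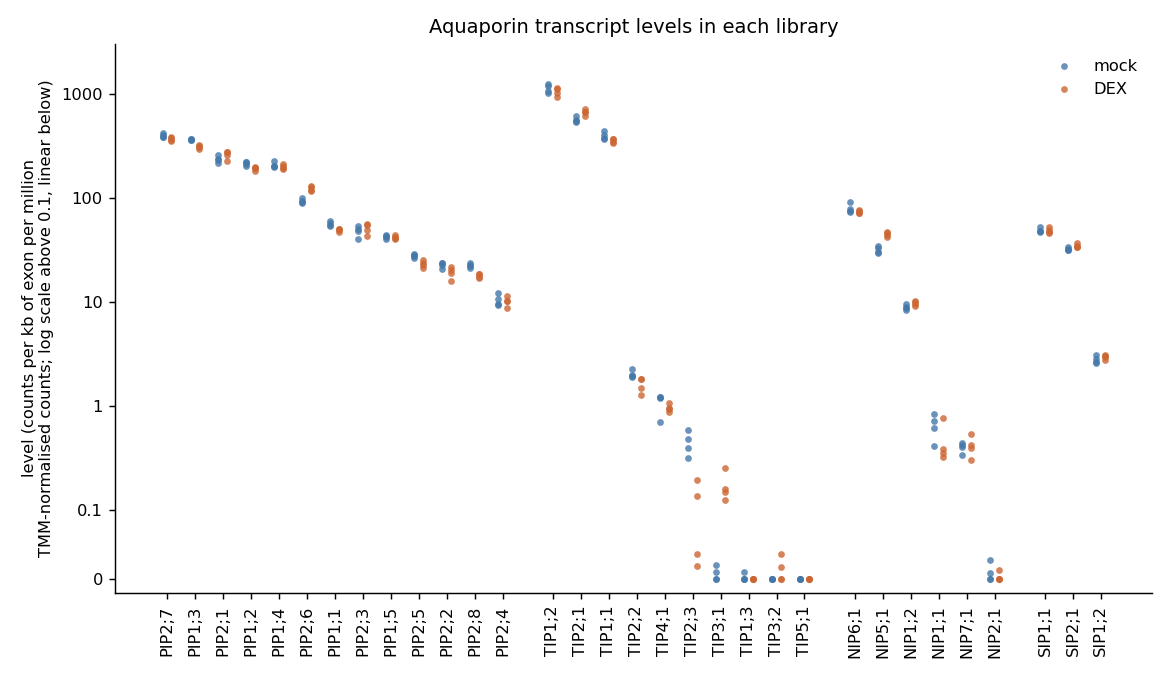
Level of each aquaporin gene in each library (TMM-normalised CPM per kilobase of exon, on a log scale above 0.1 and a linear scale below), arranged by subfamily and by falling mock mean. Points are single libraries, 4 mock and 4 DEX. Of the 8 genes over 100 in mock, 5 are PIP and 3 are TIP genes, and 5 members lie near 0 in mock.

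Under DEX, 3 members rose and 6 fell among the 27 tested, which is 11.1% and 22.2% of those tested, beside 10.9% and 8.69% of all genes tested (19.6% in either direction). NIP5;1, PIP2;6 and TIP2;1 rose. The genes that fell were PIP1;1 (AT3G61430), PIP1;2, PIP1;3, PIP2;5 (AT3G54820), PIP2;8 (AT2G16850) and TIP2;3 (AT5G47450). None of the 27 was called induced or suppressed by edgeR or by DESeq2, beside 4.64% and 1.81% of all genes tested, and none had an unadjusted p under 0.05 together with the fold and mean thresholds. All but 1 of the 27 changed less than 1.5-fold. The exception, TIP2;3, had a mean count under 50 and entered the test through its mock libraries, where it was higher. The median log2 fold change of the tested members was -0.11, against -0.01 over all genes tested, with 9 members higher and 18 lower in DEX. Over all 32 members, 5 had every DEX library above every mock library and 8 had every DEX library below, beside 16.2% and 15.1% of all genes tested. These shares leave out untested genes, while the 5 include the untested TIP3;1. All 8 below were tested. In bulk RNA, fewer cells that express a gene and less of its RNA per cell cannot be told apart. With mock replicates 2 and 4 only, the pair closest in depth to the DEX libraries, 2 members fell in place of 6, PIP2;5 and PIP2;8. That setting also removes 2 of the 4 mock libraries, and 1033 of all genes fell there in place of 1850. With all libraries thinned to 1 depth, 3 members rose and 6 fell.

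**Figure D2:**
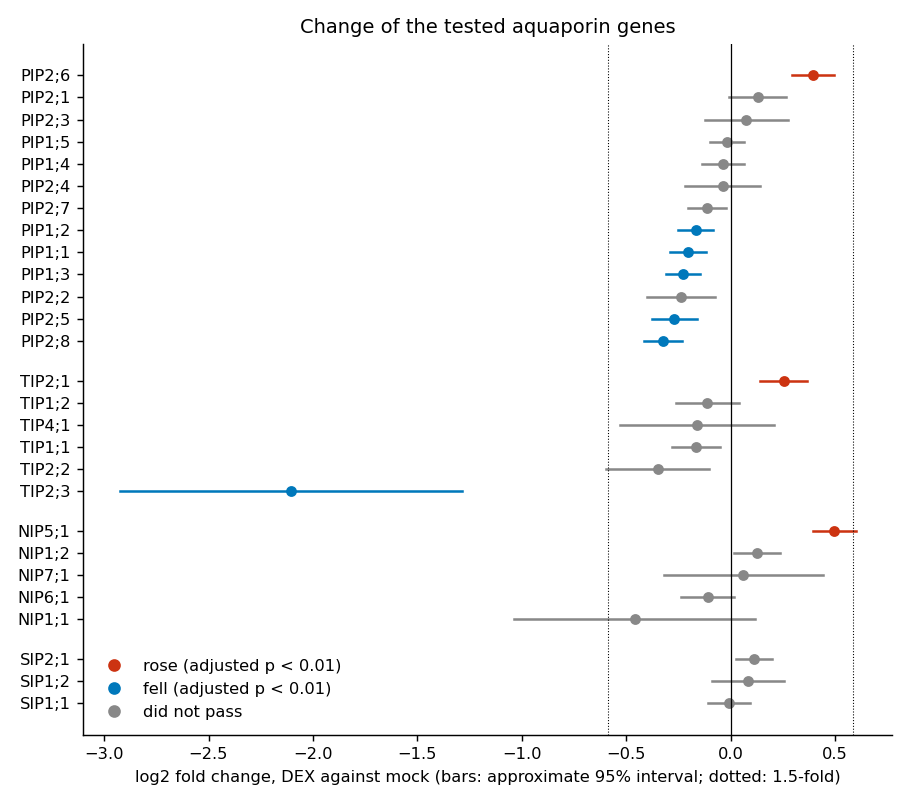
Log2 fold change (DEX over mock) of each of the 27 tested aquaporin genes from edgeR's quasi-likelihood test, grouped by subfamily, with the approximate 95% interval as bars, colour for genes that rose or fell and grey for the rest, and dotted lines at a 1.5-fold change. The 3 genes that rose lie between 0.25 and 0.50, and TIP2;3 at -2.11 lies far to the left of the others.

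The PIP1 genes, whose proteins reach the plasma membrane in tetramers with PIP2 proteins, included 3 that fell and 2 that did not pass. The most abundant of them, PIP1;3, had levels of 367, 355, 364 and 358 in mock libraries 1 to 4 and 295, 305, 312 and 323 in DEX libraries 1 to 4. All 4 DEX libraries were below all 4 mock libraries, and the log2 fold change was -0.23 (SE 0.042, edgeR adjusted p = 0.00117). PIP1;2, which in Arabidopsis leaves also eases the passage of CO2, had levels of 204, 221, 218 and 212 in mock libraries 1 to 4 and 182, 191, 192 and 196 in DEX libraries 1 to 4. Its groups did not overlap either, and its log2 fold change was -0.17 (SE 0.043, edgeR adjusted p = 0.00957). This value lay next to the threshold: the adjusted p was 0.0316, 0.0201 and 0.0251 without mock libraries 2, 3 and 4 in turn, and 0.0291, 0.0234, 0.0243 and 0.0145 without DEX libraries 1 to 4. It was also 0.0109 with RLE size factors and 0.0108 with a higher filter on low counts. PIP1;1 was lower in level, at 55.1, 57.3, 59.8 and 53.3 in mock libraries 1 to 4 and 47.1, 50.1, 50.2 and 48.6 in DEX libraries 1 to 4. Every DEX library was below every mock library, with a log2 fold change of -0.20 (SE 0.044, edgeR adjusted p = 0.00374). That adjusted p was 0.0121 without mock library 2, 0.0126 without DEX library 1 and 0.0122 without DEX library 4.

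The other PIP1 genes stayed near their mock levels. PIP1;4, as abundant as PIP1;2, had a log2 fold change of -0.04 with an approximate 95% interval of -0.14 to 0.07, and the fifth gene of the group, PIP1;5 (AT4G23400), one of -0.02 with an interval of -0.10 to 0.06. Both intervals lie well inside a 1.5-fold change. Summed over its 5 genes, the PIP1 level was 868, 876, 908 and 859.9 in mock libraries 1 to 4 and 756, 799, 789 and 812 in DEX libraries 1 to 4. The sum fell by 10.1% and did not overlap between the groups, a description that includes the 3 genes that fell.

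PIP2 proteins conduct water on their own when made in frog oocytes, and the 8 genes moved in both directions. PIP2;6, expressed around the veins of Arabidopsis rosette leaves, was the only PIP gene that rose, with levels of 88.5, 93.2, 99.7 and 90.3 in mock libraries 1 to 4 and 115, 118, 129.8 and 126 in DEX libraries 1 to 4. Every DEX library was above every mock library and its log2 fold change stood at 0.39 (SE 0.052, edgeR adjusted p = 0.000103), a rise of 31.4%. PIP2;8 fell, with levels of 22.4, 23.4, 20.9 and 22.1 in mock libraries 1 to 4 and 18.3, 18.3, 17.1 and 17.2 in DEX libraries 1 to 4, a log2 fold change of -0.32 (SE 0.046, edgeR adjusted p = 0.000177). PIP2;5 also fell, with levels of 26.2, 28.7, 27.7 and 28.3 in mock libraries 1 to 4 and 20.9, 25.2, 23.4 and 22.5 in DEX libraries 1 to 4 and a log2 fold change of -0.27 (SE 0.055, edgeR adjusted p = 0.00239). Neither of these groups of libraries overlapped, and these 3 genes kept their side of the threshold in all 16 alternatives.

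The abundant PIP2 genes did not pass. PIP2;7, a channel whose message drops under salt in Arabidopsis, had levels of 383, 397, 417 and 381 in mock libraries 1 to 4 and 357, 380.2, 351 and 373 in DEX libraries 1 to 4. The DEX libraries all lay below the mock libraries, yet the log2 fold change was -0.11 with an adjusted p of 0.0826 by edgeR. PIP2;1, an isoform phosphorylated in guard cells during stomatal closure, had levels of 229, 238, 259.6 and 216 in mock libraries 1 to 4 and 227, 275, 254 and 274 in DEX libraries 1 to 4. These overlapped, and the log2 fold change was 0.13 with an interval of -0.01 to 0.27 and an edgeR adjusted p of 0.182. The neighbouring genes PIP2;2 (AT2G37170) and PIP2;3 on chromosome 2 are 90.7% identical over 988 bases, and because the authors kept only reads with 1 genomic place, their counts rest on the differing positions and are uncertain. The first had a log2 fold change of -0.24 (edgeR adjusted p = 0.0474) and the second one of 0.07 (edgeR adjusted p = 0.627). PIP2;4 (AT5G60660) had a level of 10.3 ± 1.23 in mock and 10.1 ± 1.02 in DEX (SD, n = 4 each).

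**Figure D3:**
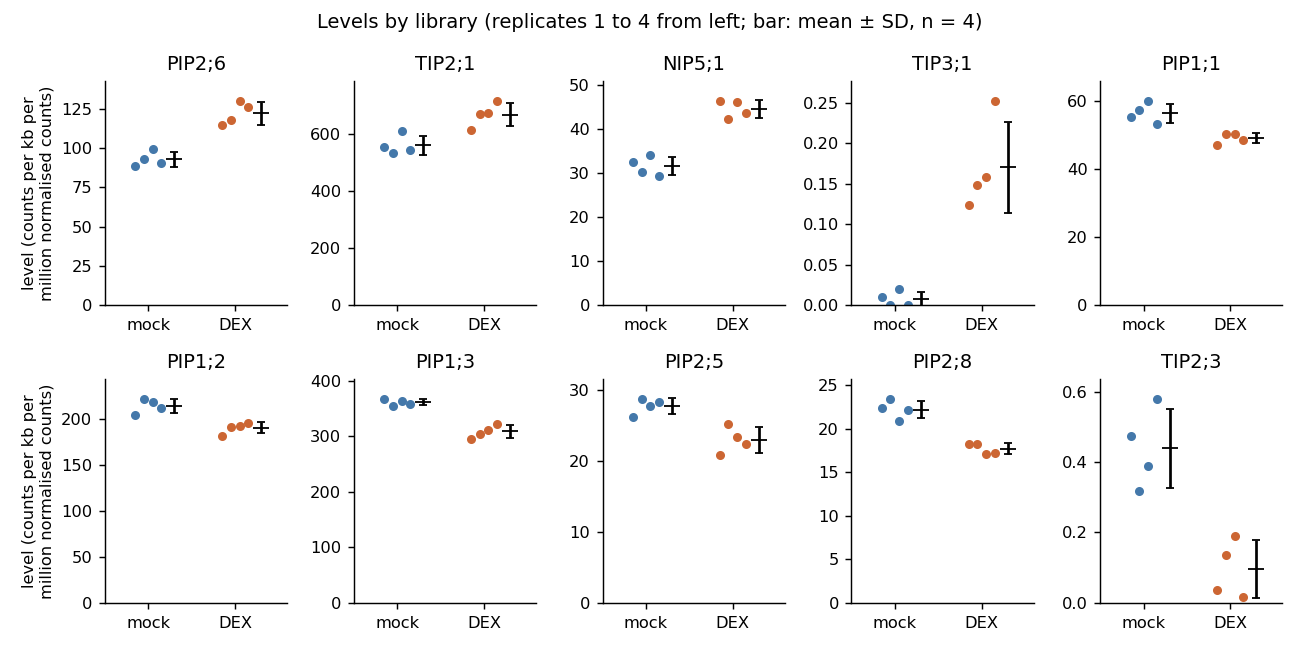
Level (TMM-normalised CPM per kilobase of exon) of the 9 aquaporin genes that rose or fell and of the untested TIP3;1, in each library, 1 panel per gene with its own axis from 0. Points are libraries, replicates 1 to 4 from left, and bars are the mean ± SD (n = 4). In all 10 panels the mock and DEX points do not overlap, which follows largely from the way the genes were picked. Both genes with large gaps, TIP3;1 and TIP2;3, have levels under 1.

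Among the TIP genes, 1 of the 6 tested rose and 1 fell. TIP2;1 had levels of 555, 532, 610.4 and 546 in mock libraries 1 to 4 and 615, 672, 673 and 715 in DEX libraries 1 to 4. The lowest DEX library was above the highest mock library, with 0.25 as the log2 fold change (SE 0.057, edgeR adjusted p = 0.00436), a rise of 19.2%. The adjusted p was 0.0125, 0.0164 and 0.0143 without mock libraries 1, 2 and 4 in turn, and 0.0119, 0.013 and 0.0159 without DEX libraries 2, 3 and 4. Exons of neighbouring genes cover 14.0% of its exon bases. If the annotation used for counting held the same overlaps, reads there were left out by a count that ignored strand. Neither of the tested TIP1 genes passed: TIP1;1, with levels of 365, 403, 434 and 376 in mock libraries 1 to 4 and 333, 364, 340.3 and 367 in DEX libraries 1 to 4, had a log2 fold change of -0.17 (edgeR adjusted p = 0.0452), and TIP1;2, with levels of 1014, 1192, 1248 and 1066 in mock libraries 1 to 4 and 931, 1116, 1014 and 1122 in DEX libraries 1 to 4, one of -0.11 (edgeR adjusted p = 0.299). In each of these genes the groups overlapped.

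The gene that fell among the TIPs was rare. TIP2;3, like TIP2;1 a channel for ammonia and best known from roots, had raw counts of 47, 19, 39 and 34 in mock libraries 1 to 4 and 2, 10, 12 and 1 in DEX libraries 1 to 4. All 4 DEX libraries were below all 4 mock libraries, and the log2 fold change was -2.11 (SE 0.42, edgeR adjusted p = 0.0022). With mock replicates 2 and 4 only, the adjusted p was 0.0196, and with the higher filter on low counts the gene was not tested. The gene cleared the filter of the main test through the mock libraries, where it was higher, so its pass is not independent of that filter. With every gene of at least 1 count kept, its adjusted p was 0.000982 by edgeR. Its closest relative, TIP2;2 (AT4G17340), had levels of 1.99, 1.92, 2.27 and 1.87 in mock libraries 1 to 4 and 1.48, 1.79, 1.79 and 1.27 in DEX libraries 1 to 4, also without overlap, and a log2 fold change of -0.35 (edgeR adjusted p = 0.0512). Markers of root hairs were near 0 in both groups, with none of 5 tested and a summed level of 0.121 to 0.273 in mock and 0.0686 to 0.337 in DEX. TIP4;1 (AT2G25810) had a level of 1.07 ± 0.256 in mock and 0.949 ± 0.0832 in DEX (SD, n = 4 each).

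TIP3;1, the channel of protein storage vacuoles in seeds, was too rare for the filter of the test but did not overlap between the groups. Its raw counts were 1, 0, 2 and 0 in mock libraries 1 to 4 and 7, 11, 10 and 14 in DEX libraries 1 to 4, 3 in all against 42, and the ratio of DEX to mock, corrected for library size, was 18.0 (exact 95% interval 5.75 to 90.8, counting error only). In both alternatives that kept the gene it was higher in DEX and passed, with an adjusted p of 0.000158 by DESeq2 and of 8.97e-05 by edgeR on every gene with at least 1 count, so that 4 members in place of 3 rose there. Its partner in seeds, TIP3;2, had 0 counts in mock and 3 in DEX. Of 5 seed markers, 2 were tested. The oil body gene OLEO1 rose, with a log2 fold change of 1.36 (SE 0.33, edgeR adjusted p = 0.00707). Its mean normalised count was 16.1, and it cleared the filter of the test mainly through the DEX libraries, where it was higher. The storage protein gene SESA1 had raw counts of 123, 49, 206 and 73 in mock libraries 1 to 4 and 113, 713, 259 and 288 in DEX libraries 1 to 4. Its levels overlapped between the groups, and it did not pass, with a log2 fold change of 1.95 (edgeR adjusted p = 0.0271). The storage protein genes CRA1 and CRU3 and the oil body gene OLEO2 were at 0 or 1 count in each library, and the summed level of the list was 1.44 to 3.66 in mock and 3.79 to 16.6 in DEX. Most of that sum was SESA1, with a mean level of 2.22 in mock and 8.75 in DEX. The part of seed material in the TIP3;1 counts was not tested. Exons of a neighbouring gene cover 24.6% of its exon bases.

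The 250 bases before the starts of these rare genes are shown, since these are the members with the largest differences. They are read from TAIR10.1 along the gene's strand. Capitals mark a match to ACGTG, the core of the abscisic acid response element, on either strand in TIP3;1 and to ATAACAA, a short MYB motif, on the shown strand in TIP2;3.
TIP2;3, chr5:19249623-19249872, - strand: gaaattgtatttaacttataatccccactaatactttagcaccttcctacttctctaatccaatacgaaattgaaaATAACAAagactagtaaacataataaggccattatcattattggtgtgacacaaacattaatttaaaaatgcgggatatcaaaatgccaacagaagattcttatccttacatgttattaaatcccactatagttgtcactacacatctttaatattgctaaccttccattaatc
TIP3;1, chr1:27521694-27521943, + strand: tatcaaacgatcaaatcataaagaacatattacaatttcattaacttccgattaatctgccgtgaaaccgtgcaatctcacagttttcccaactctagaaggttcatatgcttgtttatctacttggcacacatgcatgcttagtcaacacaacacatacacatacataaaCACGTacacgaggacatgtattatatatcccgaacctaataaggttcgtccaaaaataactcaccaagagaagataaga
The match starts 174 bases before the gene start in the first and 79 bases before it in the second. Searched on both strands over 27443 such windows of all genes, ACGTG was present in 22.9%, ATAACAA in 11.6% and the auxin response motif TGTCTC in 10.9%. Among the 32 members the numbers were 4, 3 and 1. None of the 3 members that rose and 1 of the 6 that fell, TIP2;3, held any of these letters in the window.

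NIP5;1, the channel for boric acid uptake by roots, had the smallest adjusted p of all members. Its levels were 32.5, 30.3, 34.0 and 29.4 in mock libraries 1 to 4 and 46.3, 42.2, 46.2 and 43.7 in DEX libraries 1 to 4. The highest mock library was below the lowest DEX library, with 0.50 as the log2 fold change (SE 0.052, edgeR adjusted p = 1.38e-05), a rise of 41.1% that passed in all 16 alternatives. Its messenger RNA is known for short reading frames made of a start codon followed at once by a stop codon, at which boron slows the ribosome and shortens the life of the message. The RefSeq leader of 886 bases holds 2 such sites, shown with ATGTAA in capitals, at positions counted back from the start codon.
NIP5;1 site at -312: atctttcaaagcATGTAAatttaagtccta
NIP5;1 site at -122: aaatttcaaatcATGTAAatttcgtctcta
Of the 32 members, 2 hold such a site in the leader.

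NIP6;1, which moves boric acid to young leaves, was more abundant and had levels of 74.3, 77.0, 91.6 and 73.2 in mock libraries 1 to 4 and 71.0, 75.6, 74.5 and 71.8 in DEX libraries 1 to 4. The groups overlapped, and the log2 fold change was -0.11 with an interval of -0.24 to 0.02 (edgeR adjusted p = 0.223). NIP1;2 (AT4G18910), a carrier of aluminium malate, had a log2 fold change of 0.13 (edgeR adjusted p = 0.108). The rare gene NIP1;1 (AT4G19030), known for the entry of arsenite, had one of -0.46, and its interval of -1.04 to 0.12 reached past 1.5-fold (edgeR adjusted p = 0.265). DEX library 3 lay far above the other DEX libraries, and without it the log2 fold change was -0.82 (edgeR adjusted p = 0.0311). NIP7;1 (AT3G06100), known from anthers, had a level of 0.397 ± 0.0431 in mock and 0.412 ± 0.0966 in DEX (SD, n = 4 each). Of the 3 other NIP genes, 2 were tested and neither passed.

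The 3 SIP genes did not pass the test. SIP2;1 had levels of 31.1, 31.2, 33.4 and 31.9 in mock libraries 1 to 4 and 33.6, 36.9, 33.5 and 33.9 in DEX libraries 1 to 4, and its groups did not overlap. The edgeR adjusted p was 0.0698 at a log2 fold change of 0.11, and exons of neighbouring genes cover 13.1% of its exon bases. For SIP1;1 and SIP1;2 the log2 fold changes were -0.01 and 0.08, with intervals of -0.11 to 0.09 and -0.09 to 0.25. Of the 18 tested members that neither rose nor fell, 16 had an interval inside a 1.5-fold change in either direction, the exceptions being NIP1;1 and TIP2;2.

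The summed level of all 32 members was 3831, 4067, 4342 and 3854 in mock libraries 1 to 4 and 3654, 4073, 3887 and 4130.0 in DEX libraries 1 to 4. These overlapped, and the mean differed by -2.17%. The PIP sum differed by -4.47% and overlapped between groups, although with total counts in place of TMM factors it differed by -7.43% and did not overlap. The TIP sum, 51.9% of the family in mock and 52.5% in DEX, overlapped between the groups. Within it, the TIP2 sum was 557, 535, 613 and 548 in mock and 617, 674, 675 and 716 in DEX libraries 1 to 4, 19.0% higher and without overlap, and the TIP1 sum was 1378, 1595, 1682 and 1442 against 1264, 1479.8, 1354 and 1489, with overlap. Nearly all of the TIP2 sum is TIP2;1, whose share of the family went from 14.0% in mock to 17.0% in DEX.

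**Figure D4:**
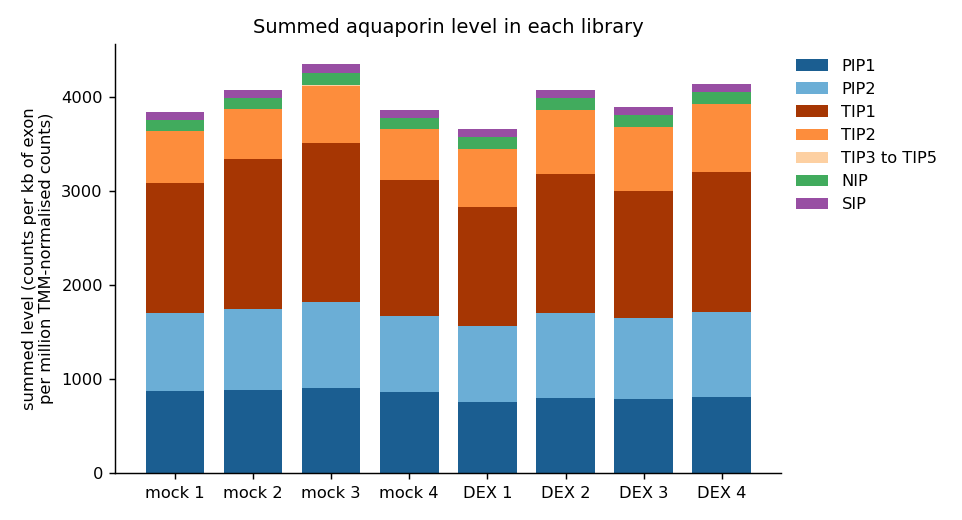
Summed level of the aquaporin genes in each library (TMM-normalised CPM per kilobase of exon), stacked by subfamily group from 0. Bars are single libraries, 4 mock and 4 DEX. The bar heights of the groups overlap, while the TIP2 segment is taller in every DEX library and the PIP1 segment shorter.

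For 8 pairs of members that were each other's best match, the log2 ratio of counts was compared between treatments by an exact two-sided permutation test, which with 4 against 4 libraries cannot give a p below 0.0286. The ratio of NIP5;1 to NIP6;1 was -0.35, -0.51, -0.59 and -0.47 in mock and 0.22, 0.0003, 0.15 and 0.12 in DEX libraries 1 to 4 on the log2 scale, a difference of 0.60. For PIP1;3 over PIP1;4 it was 0.51, 0.45, 0.34 and 0.51 against 0.27, 0.16, 0.31 and 0.32, a difference of -0.19. In the pair PIP2;2 over PIP2;3 it differed by -0.32, and in TIP2;2 over TIP2;3 by 2.15. These 4 pairs did not overlap between treatments and reached the smallest p. After Benjamini-Hochberg adjustment over 8 pairs it was 0.0571, and none was under 0.05. With 4 pairs at the smallest p the adjusted value cannot be lower, so the test could not decide about these pairs. These ratios were added after seeing the data. The ratio of PIP2;7 to PIP2;8 differed by 0.21 (exact p = 0.0571), and the other 3 pairs had exact p-values of 0.114 to 0.343.

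**Figure D5:**
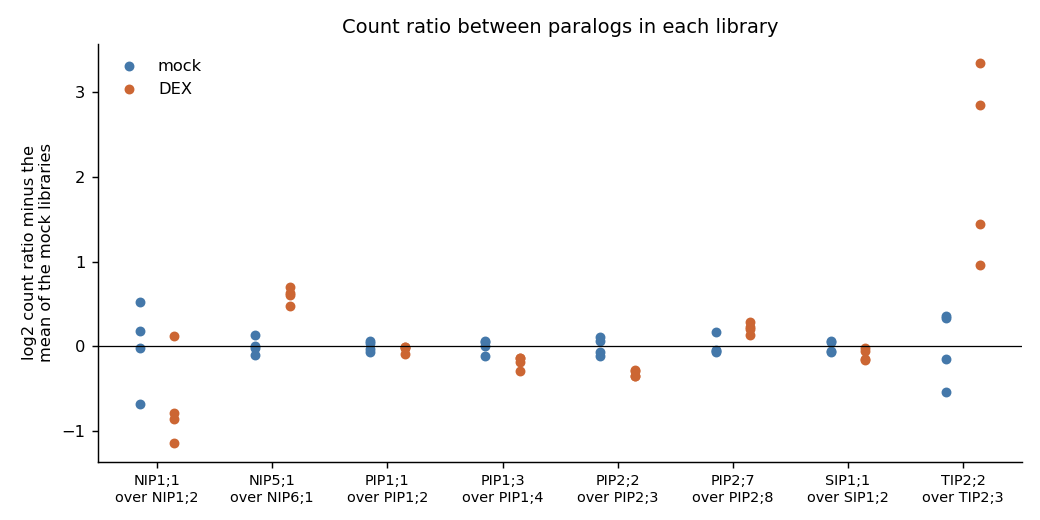
Log2 ratio of counts within each of 8 pairs of closest aquaporin relatives, shown for each library as the difference from the mean of the mock libraries, which is the line at 0. Points are libraries, 4 mock and 4 DEX. The ratio of TIP2;2 to TIP2;3 moves most, by 2.15 on average, and 4 pairs show no overlap between treatments.

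Genes that act on aquaporin proteins were described from a list of 10, of which 9 were tested, 2 rose and 1 fell. Of all genes tested, 10.9% rose and 8.69% fell. SYP121, a plasma membrane syntaxin that delivers PIP proteins to the cell surface, had levels of 41.4, 40.8, 46.6 and 47.1 in mock libraries 1 to 4 and 78.6, 85.0, 92.6 and 90.3 in DEX libraries 1 to 4. Every DEX library was above every mock library, with a log2 fold change of 0.98 (SE 0.063, edgeR adjusted p = 3.5e-07), and the gene was called induced. OST1, a kinase that phosphorylates PIP2;1 in guard cells, had a level of 7.03 ± 0.565 in mock and 10.1 ± 0.802 in DEX (SD, n = 4 each), a log2 fold change of 0.52 (edgeR adjusted p = 0.00011). RMA1, a ubiquitin ligase whose pepper relative removes PIP proteins from the cell, fell, with a log2 fold change of -0.46 (edgeR adjusted p = 0.000282). The syntaxin gene SYP61, the kinase genes BAK1 and SIRK1, RMA2, RMA3 and VAP27-1 did not pass, with log2 fold changes between -0.08 and 0.07.

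Boron leaves cells through BOR exporters. Only BOR1, BOR2 and BOR4 were looked up, and these 3 genes were set beside the boric acid channels. BOR2, which serves the joining of pectin in cell walls, had levels of 6.58, 5.81, 5.88 and 6.11 in mock libraries 1 to 4 and 9.93, 10.9, 11.3 and 10.3 in DEX libraries 1 to 4. All DEX libraries were above all mock libraries, and the log2 fold change was 0.80 (SE 0.055, edgeR adjusted p = 4.68e-07), a called induction. Of all genes tested, 4.64% were called induced. BOR1, which loads boron into the xylem, had a log2 fold change of 0.17 (edgeR adjusted p = 0.0267) and the rare gene BOR4 one of 1.12 (edgeR adjusted p = 0.0252). Of 10 clock genes, which set the daily course of many aquaporin messages, 2 rose: LUX with a log2 fold change of 0.47 and GI with 0.20 (edgeR adjusted p = 6.55e-05 and 0.00186). Of all genes tested, 10.9% rose. In DEX 9 of the 10 clock genes were higher, with a median log2 fold change of 0.16. For 4 of them every DEX library was above every mock library, beside 16.2% of all genes tested. The part of the clock, and of the lower shoot markers given above, in the aquaporin differences was not tested.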

How the data were processed

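RNA from the hypocotyl of 8 samples, 4 DEX and 4 mock, was sequenced after poly(A) selection. The authors aligned reads with STAR 2.7.8a to TAIR10, kept reads with 1 genomic place, counted them per gene without regard to strand, and deposited the raw counts used here. The annotation used for counting is not given in the sources used here. Strand-blind counting drops reads where genes overlap, and unique mapping lowers the counts of near-identical genes. A deposited table of size-factor-scaled counts was not used. Names, exon lengths, overlaps and sequences came from the RefSeq annotation of TAIR10.1, and identities from blastn 2.17.0.

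Samples were grouped by the treatment label. Library totals were 47976811 to 85953231 counts. Of 37573 genes, 9500 had no count, and edgeR 4.0.16 in R 4.3.3 tested 21289 (filterByExpr, TMM, robust quasi-likelihood fit, no block, Benjamini-Hochberg). On simulated counts the fit was tested before use. Fold changes of rare genes depend on the prior count. Intervals are estimates plus or minus the approximate 95% normal range of the SE. Alternatives were DESeq2 1.42.0, other scalings and filters, a replicate block, libraries left out, thinned libraries, and mock replicates 2 and 4 only. The ratios between paralogs were added after seeing the data. The members, gene lists and tests were chosen with earlier results of these data known. All members were named. The chi-square per gene between replicates of a group was 6.26 to 25.9, so no pair of libraries was a duplicate.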

Additional observations from a re-analysis of the deposited data

Results flagged for a closer look

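In 3 of the 54 groups of 4 libraries examined, 1 library lay far from the other 3, where chance gives about 1 in 20. TIP4;1 had 49.2 normalised counts in mock library 1, with the nearest of the others at 83.8 and the farthest at 86.8. NIP1;1 had 66.4 normalised counts in DEX library 3, against 34.0 in the nearest and 28.2 in the farthest. Without that library its log2 fold change was -0.82 (edgeR adjusted p = 0.0311) in place of -0.46 (0.265). SIP2;1 had 2869 normalised counts in DEX library 2, against 2639 and 2603. None of these 3 genes rose or fell under DEX.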

How the results depend on the processing

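With 1 library left out in turn, 2 to 3 members rose and 4 to 6 fell, and 1911 to 2184 of all genes rose and 1299 to 1712 fell, with 901 to 994 called induced and 327 to 426 suppressed and 0 members called. With mock replicates 2 and 4 only, 2 members and 1033 of all genes fell. With libraries thinned to 1 depth, 3 members rose and 6 fell. A test against a 1.5-fold change (glmTreat) called 580 genes induced and 85 suppressed. By adjusted p alone the calls were 3 and 6 members and 2320 and 1850 genes. NIP5;1, PIP2;6, PIP2;5 and PIP2;8 passed in all 16 alternatives, whereas PIP1;1 lost the pass in 4, PIP1;2 in 11, PIP1;3 in 1, TIP2;1 in 6 and TIP2;3 in 2 of the 15 that tested it. DESeq2 and edgeR on every gene with at least 1 count each gave 4 members that rose, the fourth being TIP3;1. With total counts only, TIP1;1 passed (adjusted p = 0.00846, edgeR), the median of all genes shifted by -0.0458 and 41.1% of passing genes were higher in DEX, against 55.6% with TMM.

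Replicate numbers did not pair the samples: the correlations of same-numbered libraries were between -0.00862 and 0.0706. With a replicate block, 3 members rose and 4 fell, and 2312 and 1804 of all genes, while PIP1;2 and TIP2;3 no longer passed (edgeR adjusted p = 0.0145 and 0.0101). Signs reversed only for genes that never passed. With 1 library left out, the log2 fold change of PIP1;4 was -0.065 to 0.00655, of PIP1;5 -0.039 to 0.00451, of PIP2;4 -0.10 to 0.0467, of NIP7;1 -0.10 to 0.18 and of SIP1;1 -0.046 to 0.0306. With mock replicates 2 and 4 only it was 0.00979, 0.026, 0.0245 and 0.0232 for PIP1;4, PIP1;5, PIP2;4 and SIP1;1, and with libraries thinned to 1 depth -0.12 for NIP7;1. The cause of these changes was not tested. The intervals of NIP1;1 and TIP2;2 reach past a 1.5-fold change, and what part depth has in their width was not tested.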
